A study of Homo sapiens with 6 samples.

Results

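The NRF2 antioxidant response was followed through 9 of its genes across knockdowns of FLI1 and of USP9X in A673 cells. A673 is an established Ewing sarcoma line, a tumour type driven by the EWS-FLI1 fusion protein, in which the FLI1 part of the fusion binds DNA. The 9 genes were taken by symbol from the 25268 listed genes: NFE2L2, KEAP1, NQO1, HMOX1, GCLC, GCLM, TXNRD1, SRXN1 and PRDX1. All 9 were listed, none was at 0 in any library, and all 9 were among the 12169 genes kept for testing, those at 1 FPKM or more in at least 2 libraries. FPKM is fragments mapped per length of transcript and per library size, so levels can be compared between genes of different length. Cells were transfected for 72 hours with esiRNA, a pool of short interfering RNAs cut from a longer double-stranded RNA. The control group received esiGFP, labelled as non-targeting, and the other groups received esiFLI1 or esiUSP9X. Each of the 3 groups had 2 libraries, numbered 1 and 2, and all came from the same line, with 1 kind of esiRNA for each target. USP9X is a deubiquitinase, an enzyme that removes ubiquitin from proteins. The study asked how the transcriptome of these cells responds to loss of USP9X and of EWS-FLI1.

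NRF2, the protein encoded by NFE2L2, is a transcription factor that, paired with small MAF proteins, binds antioxidant response elements in the promoters and enhancers of defence genes. KEAP1 holds NRF2 in the cytoplasm and presents it to a CUL3 ubiquitin ligase, so that NRF2 is degraded until oxidants or electrophiles modify KEAP1. NRF2 is therefore controlled largely at the protein level, which transcript measurements do not see. Its classic targets make glutathione (GCLC and GCLM), run the thioredoxin and peroxiredoxin system (TXNRD1, SRXN1 and PRDX1), reduce quinones (NQO1) and break down heme (HMOX1).

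Promoter sequence is shown because NRF2 acts through a short element. RefSeq windows on GRCh38.p14, from 250 bases before to 50 bases after the annotated start, were found for 7 of the 9 genes, without HMOX1 and PRDX1. The core of the antioxidant response element, TGACNNNGC, was searched on both strands. It was present in 3 of the 7 windows, against 13.3% of all 35116 windows. Below, each match is written 5′ to 3′ on the strand that carries it, with the matching bases in capitals and 10 bases of flank on each side. A separate search for GGAAGGAA, a repeat of the core bound by ETS factors such as FLI1, matched 1 of the 7 windows, that of NFE2L2, against 3.67% of all windows.
KEAP1, strand of the gene, bases -54 to -46 from the start: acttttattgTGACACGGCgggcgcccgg
KEAP1, opposite strand, bases -31 to -23: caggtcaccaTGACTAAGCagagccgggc
GCLM, opposite strand, bases -34 to -26: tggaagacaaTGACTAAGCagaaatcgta
TXNRD1, opposite strand, bases -102 to -94: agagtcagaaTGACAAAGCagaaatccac
NFE2L2, GGAAGGAA, strand of the gene, bases -79 to -72: ggccggcgggGGAAGGAAgggcccggac
The second KEAP1 match and the GCLM match had the same letters, TGACTAAGC. No match of the 2 motifs overlapped another. These matches describe letters in a window and are not measured binding sites. For NQO1, GCLC and SRXN1 neither motif was in the window. Only 1 window per gene was searched, although the 12169 kept genes have 13336 windows between them. Sequence farther upstream or at another start was not searched, so a missing match does not mean that a gene lacks the element.

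The knockdowns were read from the targeted genes first. The esiFLI1 libraries held 12.7 and 14.1 FPKM of FLI1, against 24.1 and 36.4 in the controls and 25.0 and 31.9 with esiUSP9X. The esiUSP9X libraries held 5.31 and 7.10 FPKM of USP9X, against 20.6 and 26.5 in the controls and 26.2 and 37.7 with esiFLI1. Each target was lowest in the 2 libraries aimed at it, and the FLI1 value does not separate the fusion from the normal gene. Summed FPKM ran from 781732 to 907926 per library, 11310 to 12071 genes reached 1 FPKM, and 1 small RNA gene, MIR6723, took 33.2% to 50.9% of the sum. In replicates 1 and 2 its share was 33.9% and 41.8% in esiGFP, 35.8% and 50.9% in esiFLI1, and 33.2% and 42.6% in esiUSP9X. Without MIR6723 the smallest sum was 445750 FPKM, in esiFLI1 replicate 2. Its part in the differences below was not tested on its own. Of 12 Ewing sarcoma markers 11 were kept, and CD99 was listed at 0 in every library. The reason for that 0 was not tested, so it is not read as absent expression. The summed level of the Ewing sarcoma markers was 862 to 918 FPKM in esiGFP, 403 to 431 in esiFLI1 and 837 to 850 in esiUSP9X. Markers of other cell types were mostly low: 2 of 10 epithelial markers were kept (summed 148 to 200 FPKM in esiGFP, 143 to 247 in esiFLI1 and 162 to 231 in esiUSP9X, with CDH1, KRT5 and KRT14 at 0), 2 of 9 endothelial (19.6 to 22.8, 30.8 to 52.0 and 16.8 to 24.7, with none at 0 throughout) and 1 of 10 immune (2.90 to 4.08, 4.78 to 8.40 and 2.00 to 2.35, with CD3E, MS4A1 and TYROBP at 0). Most of the epithelial sum was KRT18, a keratin, at 129 to 221 FPKM over the 6 libraries. Most of the endothelial sum was EMCN, at 16.4 to 49.8 FPKM. The part of these markers of other cell types in the results below was not tested.

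The NRF2 genes covered a wide range of transcript levels. In the control cells PRDX1, an abundant peroxiredoxin that removes hydrogen peroxide, led with a mean of 1015 FPKM, rank 73 among the kept genes. TXNRD1, the reductase that recharges thioredoxin, followed at 98.1 FPKM, and NFE2L2 at 68.0 and KEAP1 at 46.1 came next with overlapping libraries. NQO1, a quinone reductase, stood at 33.4 FPKM. The glutamate-cysteine ligase subunits GCLM (17.9) and GCLC (14.0) and the peroxiredoxin repair enzyme SRXN1 (15.1) were not separable in order, since the ranges of GCLM and SRXN1, and of SRXN1 and GCLC, overlapped. HMOX1, heme oxygenase, was lowest at 2.40 FPKM, at the percentile 16.0 of kept genes. The order was nearly kept in esiUSP9X cells, but NQO1 at 15.6 FPKM there overlapped GCLM at 15.3 FPKM, while in esiGFP their libraries did not overlap. In esiFLI1 cells the libraries of TXNRD1, NFE2L2, KEAP1 and NQO1 each overlapped those of the next gene in that order, up to NQO1.

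**Figure D1:**
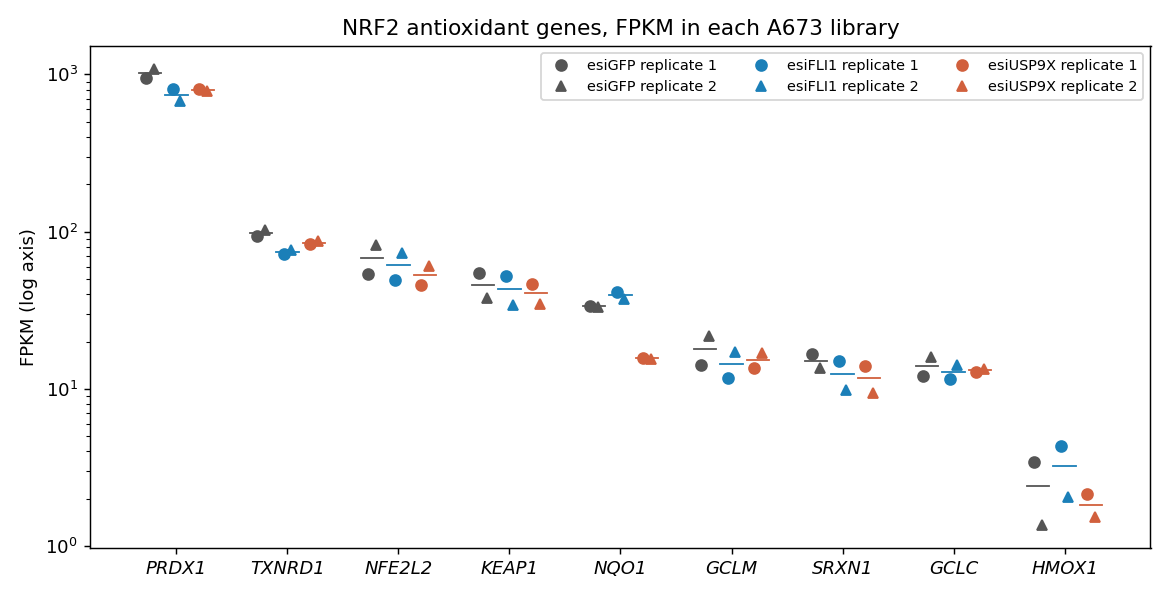
FPKM on a log axis for the 9 NRF2 genes, ordered by their mean in esiGFP, in the 6 A673 libraries; circles are replicate 1, triangles replicate 2 and bars the mean of each group. NQO1 lies at 15.5 to 15.7 FPKM in esiUSP9X and at 33.1 or more in the other 4 libraries, while in KEAP1 the replicates of a group lie farther apart than the group means.

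NQO1 was the NRF2 gene that differed most between USP9X knockdown and control. The esiUSP9X libraries held 15.7 and 15.5 FPKM of NQO1, against 33.7 and 33.1 in the controls and 41.3 and 37.3 after FLI1 knockdown. Both esiUSP9X libraries were below all 4 others, and the 2 libraries of each group lay close together. In bulk RNA, fewer cells with the transcript and less transcript per cell cannot be told apart. Against esiGFP the mean was 2.14-fold lower, a difference of -1.05 on the log2(FPKM + 1) scale, and replicate numbers 1 and 2 each gave -1.05. limma without a replicate block gave a standard error of 0.17, an unadjusted p = 0.0013 and an adjusted p = 1, so NQO1 was not called. Of all kept genes 0.0247% were called in that fit, and 114 had an unadjusted p below 0.05, among them 1 of the 9 NRF2 genes, NQO1. With the replicate number as a block, which the deviations of the libraries follow, NQO1 fell by 1.05 with a standard error of 0.10, a 95% interval of -1.27 to -0.83 and a limma adjusted p = 0.0095. It ranked 7 by p among the 12169 genes and 38 by size of fall.

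In this blocked fit 1 of the 9 NRF2 genes was called lower and none higher, beside 0.164% of all kept genes lower and 0.074% higher. The blocked call for NQO1 ended without either esiFLI1 or either esiUSP9X library, while the difference stayed between -1.08 and -1.02. It held only without an esiGFP library, where limma took the spread wholly from the trend over genes, which makes p-values small.

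Apart from NQO1, 8 NRF2 genes were not called between esiUSP9X and esiGFP in either fit. NFE2L2, the gene of NRF2 itself, stood at 53.5 and 82.5 FPKM in esiGFP and 45.7 and 60.0 in esiUSP9X. Its difference was -0.34 (blocked standard error 0.10, 95% interval -0.57 to -0.10, limma adjusted p = 0.30), and the libraries overlapped because replicate 2 was higher in both groups. KEAP1 stood at 54.3 and 37.8 FPKM in esiGFP and 46.6 and 34.5 in esiUSP9X, a difference of -0.17 with overlapping libraries (blocked limma adjusted p = 0.59). Thus the sensor and the factor were both lower within each replicate number, by amounts that did not pass the test.

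For glutathione synthesis, GCLC, the catalytic subunit, stood at 12.0 and 16.1 FPKM in esiGFP and 12.9 and 13.4 in esiUSP9X. Its difference of -0.07 had a blocked 95% interval of -0.34 to 0.19, and its libraries overlapped. GCLM, the modifier subunit, stood at 14.1 and 21.7 FPKM against 13.6 and 17.0, a difference of -0.19 (interval -0.44 to 0.06). Neither subunit was called, with blocked limma adjusted p = 0.87 for GCLC and 0.60 for GCLM. HMOX1 stood at 3.43 and 1.37 FPKM in esiGFP and 2.15 and 1.53 in esiUSP9X, and the replicate numbers disagreed in sign, at -0.49 and 0.10 (blocked limma adjusted p = 0.72).

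In the thioredoxin and peroxiredoxin group PRDX1 stood at 945 and 1086 FPKM in esiGFP and 801 and 783 in esiUSP9X. TXNRD1 stood at 93.2 and 103 FPKM in esiGFP and 83.4 and 86.8 in esiUSP9X. For both genes the esiUSP9X libraries were below the esiGFP libraries, with differences of -0.35 for PRDX1 and -0.20 for TXNRD1 that were not called (blocked limma adjusted p = 0.38 and 0.50). SRXN1, which restores overoxidized peroxiredoxins, stood at 16.6 and 13.5 FPKM in esiGFP and 14.0 and 9.41 in esiUSP9X, with a difference of -0.35 and overlapping libraries (blocked limma adjusted p = 0.32).

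Counted together, 3 of the 9 genes (NQO1, TXNRD1 and PRDX1) had esiUSP9X libraries wholly below esiGFP, as had 7.82% of all kept genes, and none lay wholly above, as had 8.75%. Within both replicate numbers 7 genes were lower, against 31.4% of all kept genes, and none was higher, against 28.2%. GCLC and HMOX1 were mixed. The median difference of the 9 genes was -0.20, beside -0.01 over all kept genes.

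After FLI1 knockdown the mean FPKM of the NRF2 genes lay between 0.733 times (PRDX1) and 1.34 times (HMOX1) the control mean. NQO1 and HMOX1 were higher in the means, and the other 7 genes were lower. Without the block limma called none of the 9 genes, while 2.81% of all kept genes were called, 2.58% higher and 0.23% lower. At an unadjusted p below 0.05 there were 1923 of all kept genes and 1 of the 9 genes, PRDX1. With the block 2 of the 9 were called, both lower, beside 21.6% of all kept genes called lower and 20.6% called higher, so the share of NRF2 genes called lower was close to the background.

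The 2 called genes belong to the thioredoxin and peroxiredoxin system. TXNRD1 stood at 72.5 and 76.0 FPKM in esiFLI1, below 93.2 and 103 in esiGFP, and fell by 0.39 (standard error 0.09, blocked limma adjusted p = 0.011, against 0.34 without the block). PRDX1 stood at 806 and 682 FPKM in esiFLI1, below 945 and 1086 in esiGFP, and fell by 0.45 (standard error 0.13, blocked limma adjusted p = 0.023, against 0.31 without the block). The esiFLI1 libraries of both genes lay wholly below the control, but the replicate numbers of PRDX1 differed in size, at -0.23 and -0.67. The blocked TXNRD1 call ended without esiGFP replicate 2 (adjusted p = 0.11) or esiFLI1 replicate 2 (0.065), and with quantile normalization (0.0504). The blocked PRDX1 call ended without esiGFP replicate 2 (0.17), esiFLI1 replicate 2 (0.18), esiUSP9X replicate 1 (0.068) or esiUSP9X replicate 2 (0.070), and with quantile normalization, where the difference was -0.19 (0.15).

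SRXN1 in the same system stood at 15.0 and 9.90 FPKM in esiFLI1 against 16.6 and 13.5 in esiGFP, a difference of -0.27 that was not called (blocked limma adjusted p = 0.079). Of the regulators, NFE2L2 stood at 49.3 and 73.1 FPKM in esiFLI1, a difference of -0.14 (blocked 95% interval -0.38 to 0.09). KEAP1 stood at 52.0 and 34.2 FPKM in esiFLI1, a difference of -0.10 (interval -0.33 to 0.12). Both overlapped their control libraries. NFE2L2, whose window held the GGAAGGAA match, was not called in esiFLI1 against esiGFP (blocked limma adjusted p = 0.28). A link between that match and FLI1 was not tested.

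The glutathione subunits also overlapped their controls after FLI1 knockdown. GCLC stood at 11.5 and 14.1 FPKM in esiFLI1, a difference of -0.11 (blocked limma adjusted p = 0.44). GCLM stood at 11.7 and 17.2 FPKM, a difference of -0.28 (adjusted p = 0.069). NQO1 was higher in both esiFLI1 libraries than in both controls, by 0.23 (blocked 95% interval 0.00 to 0.45, limma adjusted p = 0.093). HMOX1 stood at 4.36 and 2.07 FPKM in esiFLI1 against 3.43 and 1.37 in esiGFP, a difference of 0.33 with overlapping libraries (blocked limma adjusted p = 0.14).

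By counts, 2 of the 9 genes had esiFLI1 libraries wholly below esiGFP, against 17.3% of all kept genes, and 1, NQO1, wholly above, against 19.8%. Within both replicate numbers 7 genes were lower (43.7% of all kept genes) and 2 higher (38.5%). The median difference was -0.14, beside -0.03 over all kept genes. The esiFLI1 and esiUSP9X comparisons share the esiGFP libraries, so their values are given side by side without an overlap between them.

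**Figure D2:**
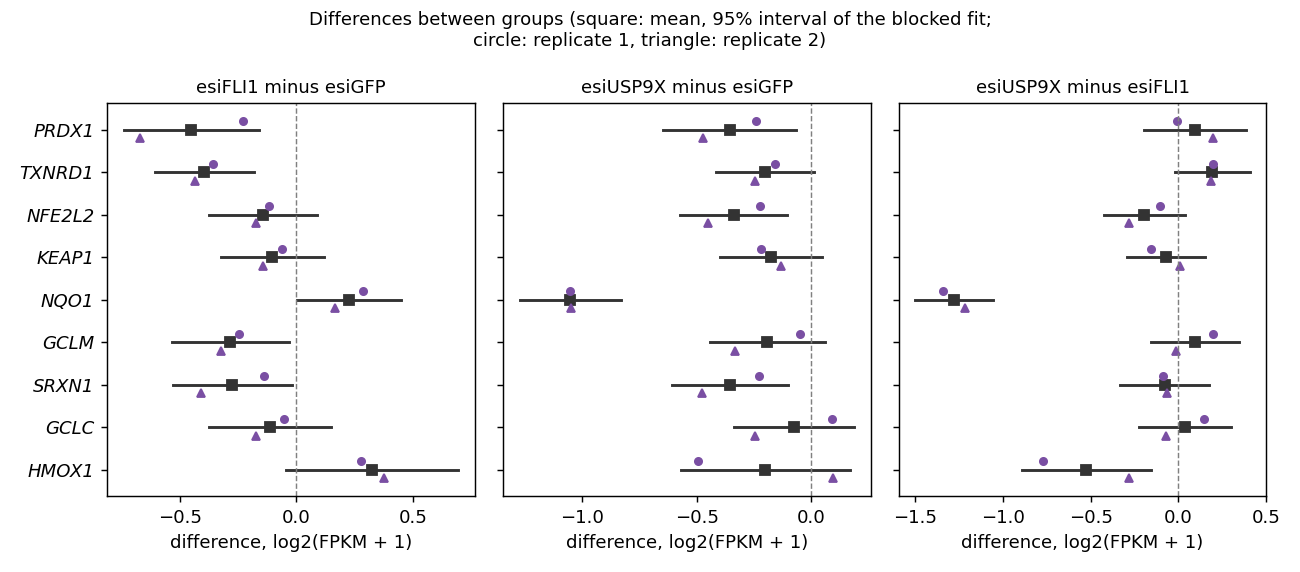
Differences between groups in log2(FPKM + 1) for each NRF2 gene in the 3 comparisons; squares with bars are the mean and 95% interval of the limma fit with the replicate block, circles replicate 1 and triangles replicate 2. NQO1 sits at -1.05 in esiUSP9X minus esiGFP and at -1.28 in esiUSP9X minus esiFLI1, while TXNRD1 and PRDX1 are the genes called lower in esiFLI1.

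Set directly against each other, the knockdowns differed in NQO1. Its mean was 2.52-fold lower in esiUSP9X than in esiFLI1, a difference of -1.28. limma called it lower both without the block (standard error 0.17, adjusted p = 0.030) and with it (adjusted p = 7.1e-05). It was 1 of 9 genes called without the block, beside 3.08% of all kept genes called, 2.66% lower and 0.419% higher. The call without the block ended when any 1 of the 6 libraries was left out (adjusted p 0.096 to 0.32) and when only the 2 groups compared were fitted (0.10). With the block it held for each library left out.

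HMOX1 was the other gene called in the blocked fit, at -0.52 (standard error 0.16, limma adjusted p = 0.032, against 0.67 without the block), beside 20.9% of all kept genes called lower and 20.2% higher. The esiUSP9X libraries at 2.15 and 1.53 FPKM overlapped the esiFLI1 libraries at 4.36 and 2.07 FPKM. That call ended without esiFLI1 replicate 1 (adjusted p = 0.21), esiFLI1 replicate 2 (0.11) or esiUSP9X replicate 1 (0.28), and with quantile normalization (0.11). TXNRD1 was higher in both esiUSP9X libraries than in both esiFLI1 libraries, by 0.19 (blocked limma adjusted p = 0.13). NQO1 was thus 1 gene wholly lower, against 21.1% of all kept genes, and TXNRD1 1 gene wholly higher, against 18.4%. Within both replicate numbers 4 genes were lower (38.1% of all kept genes), 1 was higher (41.5%) and 4 were mixed. The remaining differences ran from -0.19 for NFE2L2 to 0.10 for PRDX1, and the median of the 9 genes was -0.07, beside 0.02 over all kept genes.

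Several NRF2 genes differed between replicate numbers as much as between groups. NFE2L2 was higher in replicate 2 by 0.61 in esiGFP, 0.56 in esiFLI1 and 0.39 in esiUSP9X on the log2(FPKM + 1) scale. GCLM followed with 0.59, 0.51 and 0.30. KEAP1 went the other way with -0.51, -0.59 and -0.43, as did HMOX1 with -0.90, -0.81 and -0.32. These opposite signs held in each of the 3 groups. SRXN1 was also lower in replicate 2, at -0.28, -0.55 and -0.53. NQO1 was nearly level, at -0.03, -0.14 and -0.02, and TXNRD1 stood at 0.14, 0.07 and 0.06.

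The replicate difference went with base composition. The longest protein-coding GENCODE transcript of GCLM had 37.3% GC and that of NFE2L2 45.6%, against 58.1% for HMOX1 and 60.3% for KEAP1. NQO1, at 46.0%, lay near the middle and close to NFE2L2, yet their mean replicate differences were -0.06 and 0.52. GCLC (44.3%) and TXNRD1 (44.8%), with lower GC than NFE2L2, had mean replicate differences of 0.24 and 0.09. Across the 9 genes Pearson's r between GC content and the mean replicate difference was -0.89, and across the 11470 kept genes with a transcript it was -0.81. Genes share their libraries, so both are descriptions without a test. The 2868 genes of lowest GC content had a median replicate difference of 0.41 and the 2868 of highest -0.71. The group differences themselves followed GC only weakly, with r of -0.11 for esiFLI1 minus esiGFP, -0.11 for esiUSP9X minus esiGFP and 0.06 for esiUSP9X minus esiFLI1. After a GC correction the NQO1 difference between esiUSP9X and esiGFP was -1.06 (blocked limma adjusted p = 0.018).

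**Figure D3:**
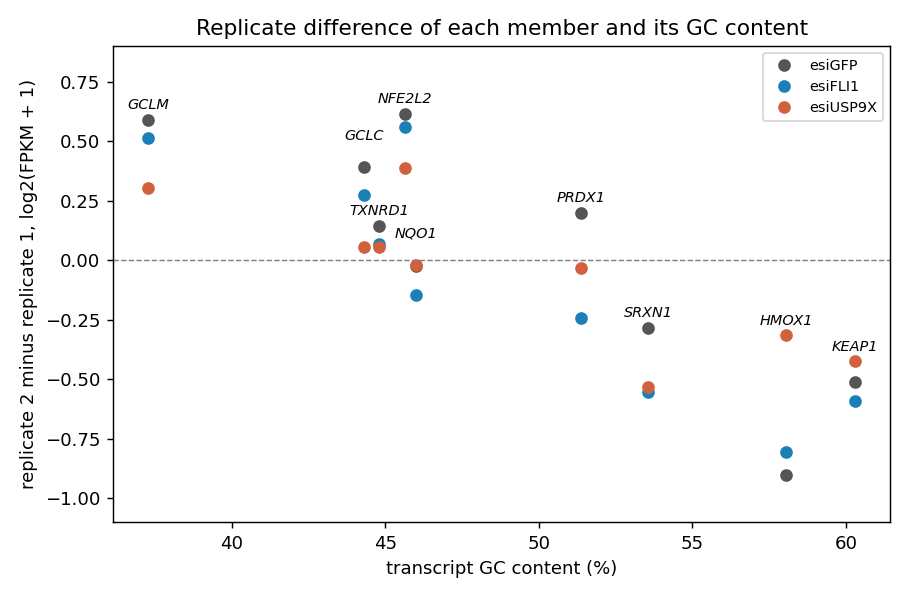
Replicate 2 minus replicate 1 in log2(FPKM + 1) for each NRF2 gene in each group, against the GC percentage of its transcript. GCLM (37.3%) and NFE2L2 (45.6%) are above 0 in all 3 groups, and KEAP1 (60.3%), HMOX1 (58.1%) and SRXN1 (53.6%) are below 0. NQO1 (46.0%) lies near 0 although its GC content is close to that of NFE2L2.

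The same split showed in how the genes varied together over the 6 libraries. GCLC and GCLM, the subunits of 1 enzyme, had the highest Pearson's r of any pair, 0.96, and KEAP1 and SRXN1 had 0.92. HMOX1 and GCLC had the lowest, -0.88. NFE2L2 was most like CTBP2 (r = 0.995), RBBP4 (0.994) and WDR70 (0.993) among 8702 genes with a mean of 5 FPKM or more. NQO1 was most like GPM6B (0.971), PIGF (0.963) and USP9X (0.960). GPM6B stood at 4.51 and 4.09 FPKM in esiUSP9X, against 6.90 and 6.33 in the controls and 6.66 and 6.58 after FLI1 knockdown. It was picked for its likeness to NQO1 in these libraries, so its low esiUSP9X values follow from that choice. USP9X was itself the target of esiUSP9X. HMOX1 was most like GAMT, CTSD and NPEPL1 (each 0.997). These values over 6 libraries include the replicate difference and carry no test.

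Overlapping gene models limit the readings of NFE2L2, NQO1, GCLC, SRXN1 and PRDX1, while none overlapped KEAP1, HMOX1, GCLM or TXNRD1 in GENCODE v29. On the opposite strand NFE2L2 overlaps AGPS and an antisense RNA, PRDX1 overlaps MMACHC, and NQO1 and GCLC each overlap an antisense RNA. The library kit keeps strand, but whether counting used it is not given in the sources used here. On the same strand, where strand cannot separate reads, NFE2L2 and GCLC each overlap a noncoding RNA and SRXN1 overlaps a second protein-coding model. Of these overlapping genes the table lists AGPS and MMACHC. AGPS stood at 17.9 and 29.7 FPKM in the controls, 19.7 and 34.8 after FLI1 knockdown and 17.7 and 25.8 after USP9X knockdown, higher in replicate 2 as NFE2L2 was. MMACHC stood between 3.88 and 6.10 FPKM, far below PRDX1.

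Genes around the NRF2 pathway were read in 7 further lists. These lists group genes by function, and whether NRF2 controls their genes in these cells was not tested. In esiUSP9X against esiGFP limma called no gene of any of the 7 lists without the block. At an unadjusted p below 0.05 there were 2 genes, both in the thioredoxin list. With the block, 0 of 17 NRF2 partners and regulators, 0 of 31 glutathione genes, 0 of 19 NADPH genes, 0 of 18 heme and iron genes and 0 of 20 detoxification genes were called. Only 0.238% of all kept genes were called in this fit, so counts of 0 in lists of this size are what the background gives and are no result about the lists. The most abundant genes of these lists showed small differences. GSTP1, a glutathione transferase, was at -0.23 (514.6 FPKM in esiGFP), and FTL, the ferritin light chain, at -0.24 (1414 FPKM). PGD, an NADPH-producing enzyme, was at -0.19 (280.3 FPKM), and AKR1C3, a ketoreductase, at 0.04 (443 FPKM). FTL and AKR1C3 have similar copies or relatives in the genome, so their levels are uncertain. Among partners, NFE2L1, a relative of NRF2, was at -0.10 (66.1 FPKM).

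The calls in esiUSP9X came from the thioredoxin and metallothionein lists. TXNIP, which binds and inhibits thioredoxin, stood at 6.53 and 5.89 FPKM in esiGFP and 15.2 and 15.9 in esiUSP9X, and rose by 1.20 (blocked limma adjusted p = 0.0087), the 1 gene of 19 called in its list, beside 0.074% of all kept genes called higher. In the list of superoxide dismutases, catalase and metallothioneins 4 of 9 genes were called lower, beside 0.164% of all kept genes, and all 4 were metallothioneins, small proteins that bind zinc and copper. The median difference of that list was -0.93, beside -0.01 over all kept genes, and was the value of MT2A itself. It does not describe the dismutases or catalase. Mean FPKM in esiGFP and esiUSP9X was 353 and 328 for SOD1 and 69.2 and 75.6 for SOD2. For CAT, catalase, it was 20.4 and 16.9, and for CCS 18.2 and 19.2. None of these was called. MT2A stood at 303 and 87.4 FPKM in esiGFP and 152 and 47.4 in esiUSP9X, lower within each replicate number although the groups overlapped, and fell by 0.93 (blocked limma adjusted p = 0.021). MT1F fell by 1.51, MT1G by 1.33 and MT1X by 1.02 (blocked limma adjusted p = 0.021, 0.021 and 0.022). Metallothionein genes are near-identical copies, so their split of reads is uncertain. The TXNIP, MT2A and MT1X calls ended without either esiFLI1 or either esiUSP9X library, and the MT1F and MT1G calls without either esiFLI1 library or esiUSP9X replicate 1 (largest adjusted p 0.12 for TXNIP, 0.25 for MT2A, 0.29 for MT1X, 0.21 for MT1F and 0.18 for MT1G). KRT8, an epithelial keratin, was also called higher in the blocked fit (0.86, limma adjusted p = 0.021), and its part in these results was not tested.

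**Figure D4:**
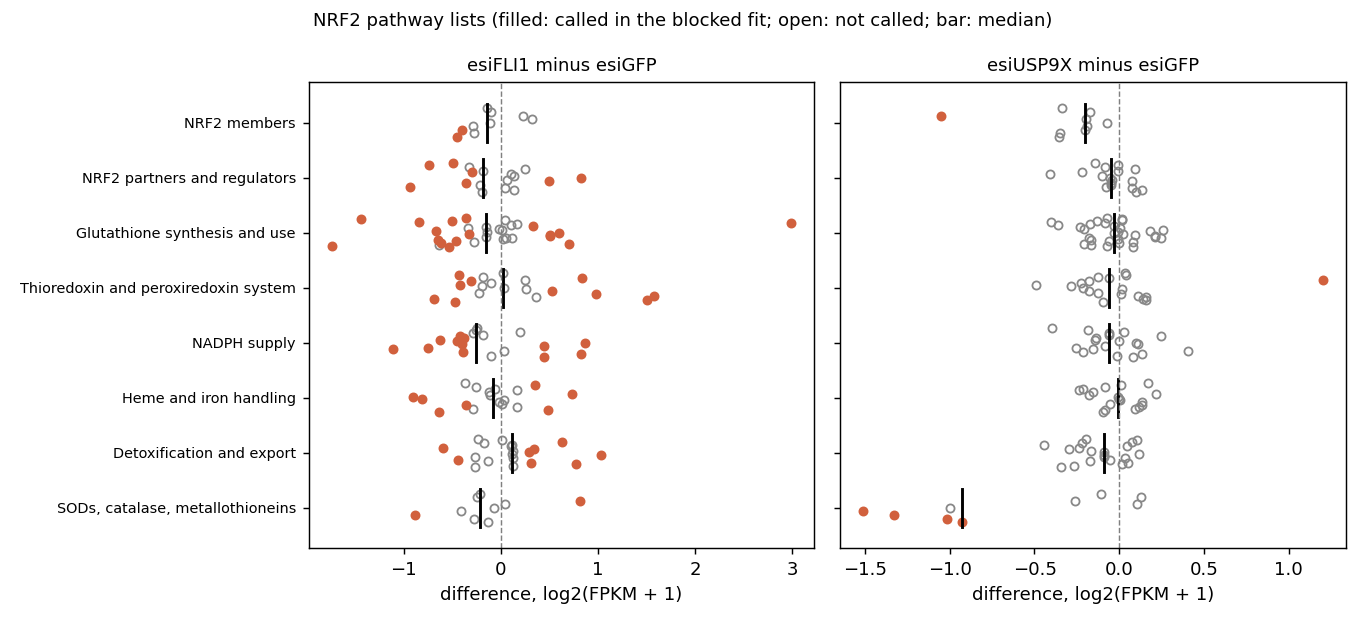
Differences from esiGFP in log2(FPKM + 1) for the kept genes of the 9 NRF2 genes and 7 further pathway lists, in esiFLI1 (left) and esiUSP9X (right); filled points are called in the limma fit with the replicate block, open points are not, and bars are medians. In esiUSP9X the filled points are NQO1, TXNIP and 4 metallothioneins, while in esiFLI1 points are filled on both sides of 0 in every list but the first.

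After FLI1 knockdown calls in these lists went in both directions, in a comparison where 42.1% of all kept genes were called with the block. In the glutathione list 6 of 31 genes were called higher and 11 lower. GPX3, a secreted glutathione peroxidase, stood at 12.2 and 8.06 FPKM after FLI1 knockdown, against 0.493 and 0.269 in the controls, and rose by 2.99 also without the block (limma adjusted p = 0.0096), a call that ended without either esiGFP library (largest adjusted p 0.099). SLC3A2, the heavy chain of the cystine transporter, fell by 1.44 (121 to 46.5 FPKM), CHAC1, which degrades glutathione, by 1.74 (6.72 to 1.13 FPKM), and GPX1, a cytosolic peroxidase, by 0.84 (80.3 to 42.9 FPKM), each called with the block but not without.

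In the thioredoxin list 5 of 19 genes were called higher and 5 lower with the block. MSRB3, a methionine sulfoxide reductase, rose by 1.58 (3.40 to 12.2 FPKM) and SESN3, a sestrin, by 1.50 (1.13 to 5.18 FPKM). Both were called without the block too (limma adjusted p = 0.028 and 0.048), and both of those calls ended with any 1 library left out (largest adjusted p 0.24 and 0.28). MSRB2 rose by 0.98 and TXNRD3, a relative of TXNRD1, by 0.83, with the block only.

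In the NADPH list 4 of 19 were called higher and 8 lower with the block and none without. The mitochondrial folate enzyme MTHFD2 fell by 1.11 (177 to 81.5 FPKM), and MTHFD1 by 0.75 and ME1, malic enzyme, by 0.62, while NNT, the proton-driven transhydrogenase, rose by 0.83. Among heme and iron genes 3 of 18 were called higher and 4 lower. TFRC, the transferrin receptor, fell by 0.81 (114 to 64.5 FPKM), as did ABCB6 by 0.90, while SLC40A1, the iron exporter, rose by 0.74, a call that ended without esiFLI1 replicate 2 (blocked limma adjusted p = 0.085). Medians of these 2 lists were -0.26 and -0.08.

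Of the NRF2 partners and regulators 2 of 17 were called higher and 5 lower with the block. PGAM5, a mitochondrial phosphatase that binds KEAP1, fell by 0.93 (41.9 to 21.7 FPKM), and MAFG, a small MAF partner of NRF2, by 0.74 (9.88 to 5.75 FPKM). NFE2L3, a relative of NRF2, rose by 0.82 (7.91 to 15.0 FPKM) and GSK3B, a kinase that marks NRF2 for degradation, by 0.50. In the detoxification list 6 of 20 were called higher and 2 lower. PTGR1, a prostaglandin reductase, rose by 0.78, the exporter ABCC3 by 1.03 and AKR1B1, aldose reductase, by 0.63, while CBR1, a carbonyl reductase, fell by 0.60. CAT, catalase, rose by 0.82 (20.4 to 36.8 FPKM) and MT1G fell by 0.88, 1 gene each way of 9, and the MT1G call ended without esiFLI1 replicate 2 (blocked limma adjusted p = 0.053). In the same fit KRT8, the endothelial markers KDR and EMCN and the macrophage marker CD68 were called higher, and their part in these list counts was not tested.

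The same lists were then read between the knockdowns. With the block, 41.1% of all kept genes were called. The list counts, higher and lower in esiUSP9X against esiFLI1, were 4 and 3 of 17 partners, 11 and 7 of 31 glutathione genes, 4 and 5 of 19 thioredoxin genes, 6 and 4 of 19 NADPH genes, 6 and 4 of 18 heme and iron genes, 2 and 6 of 20 detoxification genes and 1 and 6 of 9 in the dismutase, catalase and metallothionein list. SQSTM1, the autophagy receptor p62 that sequesters KEAP1, was lower by -0.51 (24.7 FPKM in esiGFP, 27.3 in esiFLI1 and 18.4 in esiUSP9X, blocked limma adjusted p = 0.0074, against 0.70 without the block), a call that ended without esiFLI1 replicate 1 or esiUSP9X replicate 1 (largest adjusted p 0.071). CBR3, a carbonyl reductase, was lower by -0.64 (blocked limma adjusted p = 0.0017, against 0.34 without the block). IDH1, an NADPH-producing dehydrogenase, was higher by 0.51 and RPIA, of the pentose phosphate pathway, by 0.67 (blocked limma adjusted p = 0.0038 and 0.0019, against 0.43 and 0.19 without the block). The blocked IDH1 call ended without esiUSP9X replicate 1 (adjusted p = 0.056).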

How the data were processed

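Total RNA from A673 cells was made into strand-keeping, ribosomal-RNA-depleted libraries from 2 µg and read as single ends of 75 nucleotides, per the labels' protocols. The authors deposited 1 table of FPKM values with 1 column per library. Per the submitters' processing notes, which give no roles or versions, the tools were TopHat, Cufflinks and Cuffdiff. The same notes name hg19 (GRCh37) as the build. Read depth is unknown from FPKM, so no counting interval is given. A single stray line without a gene was dropped.

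Values were tested as log2(FPKM + 1) with limma 3.58.1 (R 4.3.3), lmFit and eBayes with a mean trend, two-sided, on 6 libraries in 3 groups, for genes at 1 FPKM or more in 2 libraries. P-values were adjusted by Benjamini-Hochberg over all 12169 kept genes and called below 0.05. Because the pseudocount is 1, differences understate changes of low genes. The fits were also run on simulated data with independent noise and a built-in replicate difference. That run does not bear on whether the calls reported here are real. The groups were fitted without a block, and again with the replicate number as a block. The labels number replicates without stating a shared day. The pairing was taken from the data: same-numbered libraries deviated together, with correlations of 0.65, 0.59 and 0.64 across genes. Nothing states that replicates are separate cultures, so p-values measure the spread between these libraries, which may be technical.

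The 9 genes and all lists were chosen with earlier results of these data known, so no p is given over a list. All 9 genes and the knockdown targets were named. From each list up to 4 called genes by smallest blocked p, or otherwise the 2 most abundant, were eligible, and likeness was taken for NFE2L2, NQO1 and HMOX1. KRT8, KRT18, KDR, EMCN and CD68 were named after their values were seen. So were SOD1, SOD2, CAT and CCS for esiUSP9X against esiGFP. A result that this rule would name is not reported here. Transcript GC content and gene overlaps came from GENCODE v29 and promoter windows from RefSeq (GRCh38.p14), another build than the table's, so no coordinates are given.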

Additional observations from a re-analysis of the deposited data

How the results depend on the processing

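The replicate block changed most counts of calls. With the block, NRF2 genes called were 2 for esiFLI1 minus esiGFP, 1 for esiUSP9X minus esiGFP and 2 for esiUSP9X minus esiFLI1, against 0, 0 and 1 without it, and all genes called were 5125, 29 and 4996, against 342, 3 and 375. In the same order, the block with quantile normalization gave 1, 1 and 1 NRF2 genes and 4710, 34 and 4863 genes; with median-of-ratios scaling 2, 1 and 2 NRF2 genes and 5207, 29 and 5118 genes; with GC correction 4, 1 and 3 NRF2 genes and 6229, 19 and 6167 genes. The single esiFLI1 call under the block with quantile normalization was NQO1, higher (limma adjusted p = 0.040). With the block and GC correction, GCLM was also called lower (limma adjusted p = 0.015) and NQO1 higher (0.034) for esiFLI1 minus esiGFP. TXNRD1 was called higher there for esiUSP9X minus esiFLI1 (limma adjusted p = 0.022). Without the block, GC correction gave 1 and 2 NRF2 genes and 2839 and 2795 genes for esiFLI1 minus esiGFP and esiUSP9X minus esiFLI1, a filter of 5 FPKM 139 and 154 genes, and only the 2 groups compared 56 and 69 genes, with 0 NRF2 genes for esiUSP9X minus esiFLI1. With no filter on low values 558 genes were called for esiFLI1 minus esiGFP. The quantile, median-of-ratios and GC fits with the block, and the GC fit, were chosen after seeing the data.

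Leaving out 1 library gave 2 to 136 genes without the block and 2640 to 4670 with it for esiFLI1 minus esiGFP, 3 to 5 and 9 to 271 for esiUSP9X minus esiGFP, and 3 to 148 and 2637 to 5378 for esiUSP9X minus esiFLI1. NRF2 genes called were 0 without the block in each comparison, and 0 to 3, 0 to 2 and 1 to 2 with it. In the blocked fits without an esiGFP library, limma took the spread wholly from the trend over genes, which makes those p-values small. Among blocked fits with a library left out, the esiUSP9X minus esiGFP calls of NQO1, TXNIP, MT2A and MT1X held only there. Where a library was left out, these differences, none called without the block, changed sign in some fit. The ranges pool fits with and without the block. With the block, every esiFLI1 minus esiGFP difference listed kept its sign. So did GCLM and KEAP1 for esiUSP9X minus esiGFP, and KEAP1, NFE2L2 and SRXN1 for esiUSP9X minus esiFLI1. For these the sign changed only without the block. For esiFLI1 minus esiGFP the ranges were -0.31 to 0.082 for GCLC, -0.58 to 0.011 for GCLM, -0.13 to 0.78 for HMOX1, -0.40 to 0.19 for KEAP1, -0.45 to 0.16 for NFE2L2 and -0.55 to 0.0021 for SRXN1. For esiUSP9X minus esiGFP they were -0.27 to 0.12 for GCLC, -0.49 to 0.10 for GCLM, -0.65 to 0.25 for HMOX1 and -0.43 to 0.081 for KEAP1. For esiUSP9X minus esiFLI1 they were -0.098 to 0.18 for GCLC, -0.16 to 0.35 for GCLM, -0.37 to 0.22 for KEAP1, -0.47 to 0.086 for NFE2L2, -0.067 to 0.26 for PRDX1 and -0.35 to 0.20 for SRXN1. PRDX1 was at -0.17 in that comparison under quantile normalization, with or without the block. The cause was not tested. NQO1 kept its sign in every setting for esiUSP9X against either group. HMOX1 has no value under the filter of 5 FPKM, and read depth, which limits low genes such as HMOX1, is unknown.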
